A study of Nannochloropsis oceanica with 15 samples.

Results

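The comparison described here sets 3 RNA libraries of Nannochloropsis oceanica strain IMET1, a single-celled marine alga rich in oil, taken 12 h after transfer to medium without phosphate against 3 libraries taken at 0 h. These are 6 of the 15 libraries of a series that also holds 3 libraries each from 6, 24 and 48 h. They were chosen by the times in their labels, and all genes with enough counts were used: 9321 of the 10434 in the deposited table. Cultures grew under continuous light, and the cells were washed with seawater before transfer. All 15 libraries, those of 0 h included, carry a phosphate deprivation label, but the titles of the 0 h libraries have no P. Complete medium is described in the labels as a second condition, and no library here is labelled with it, so the effects of lost phosphate, of washing and transfer and of hours in culture cannot be told apart. Replicates carry the letters a, b and c and are called triplicates. No label says that a letter marks the same culture at 12 h and 0 h, so p-values measure the spread between libraries, which may be partly technical. In total RNA from whole cultures, a change in the cells and a change in which cells are present cannot be told apart.

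Phosphorus is needed for nucleic acids, for phospholipid membranes and for ATP. Algae and plants deprived of it are known to take up and recycle phosphate, to replace phospholipids with lipids that hold sulfur, galactose or betaine in place of phosphorus, and to slow division. Nannochloropsis has a plastid of secondary origin, surrounded by membranes that are continuous with the endoplasmic reticulum, and a cell wall of cellulose under an outer layer of algaenan. In eukaryotes, secreted proteins and wall sugars pass from the endoplasmic reticulum through COPII and COPI vesicles and the Golgi. Gene names below are those of the deposited annotation, given by homology to other species, mostly plants. They do not show what a gene does in this alga. Several genes often carry the same name, and where the tested genes of a name were not all called the same way, their counts stand beside the gene described.

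Total counts were 21655636, 17672754 and 16649421 in the 12 h libraries and 18013512, 21231074 and 24955189 in the 0 h libraries. Levels are given in CPM, a library's counts set to a common total after TMM scaling. A change is the log2 fold change of 12 h over 0 h with its standard error (SE) from an edgeR quasi-likelihood fit of all 15 libraries, n = 3 per time. A gene was called at a Benjamini-Hochberg adjusted p below 0.05 over the 9321 tested genes. Across genes, which are no replicates of each other, log2 CPM correlated at 0.913 to 0.919 between libraries of 12 h, 0.922 to 0.930 between libraries of 0 h and 0.772 to 0.806 between the times. Genes for light-harvesting proteins, a mark of photosynthetic cells, held 7.40% to 8.29% of the counts at 12 h and 9.50% to 10.1% at 0 h.

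At 12 h, more genes were called higher than lower in the lists for vesicle coats, nucleotide sugar transport, actin and myosin, chromosome segregation, DNA replication, cytosolic ribosomes, protein folding in the endoplasmic reticulum and the proteasome. More were called lower than higher in those for carbon fixation, chlorophyll and carotenoid synthesis, light harvesting, glycolysis, autophagy, splicing and transcription. In all, 6037 genes (64.8%) were called, 2990 (32.1%) higher and 3047 (32.7%) lower. These shares are the background against which the gene lists below are read, together with the median of all tested genes, -0.04 on the log2 scale. The rises were larger than the falls: the median log2 fold change was 1.24 over the genes called higher and -0.75 over those called lower. At least 2-fold changes were called for 1787 genes (19.2%) upward and 961 (10.3%) downward, and at least 8-fold changes for 455 and 70. Which direction held more calls depended on the scaling, with 3044 higher and 2973 lower under the size factors of DESeq2. Where a fold change stands below without an adjusted p, the gene was called, and a level written with ± is a mean with its SD (n = 3). Most genes described below were chosen from those with no overlap between 12 h and 0 h. Statements that their groups did not overlap restate this choice and are no added evidence.

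The genes called higher took 41.9% to 44.9% of all counts in the 12 h libraries and 15.4% to 15.6% in the 0 h libraries. The genes called lower took 29.9% to 32.3% at 12 h and 58.5% to 59.2% at 0 h. These shares describe the size of the turnover and are no test, since the same libraries chose the genes. The balance of directions differed along the range of mean level. With the tested genes cut into 5 equal groups by mean log2 CPM, 31.4% were called higher and 15.6% lower in the lowest group, and in the highest group 29.9% were called higher and 47.6% lower. All 3 libraries of 12 h lay above all 3 of 0 h for 3215 genes (34.5%) and below them for 3389 (36.4%), and 139 called genes had groups that overlapped.

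**Figure D1:**
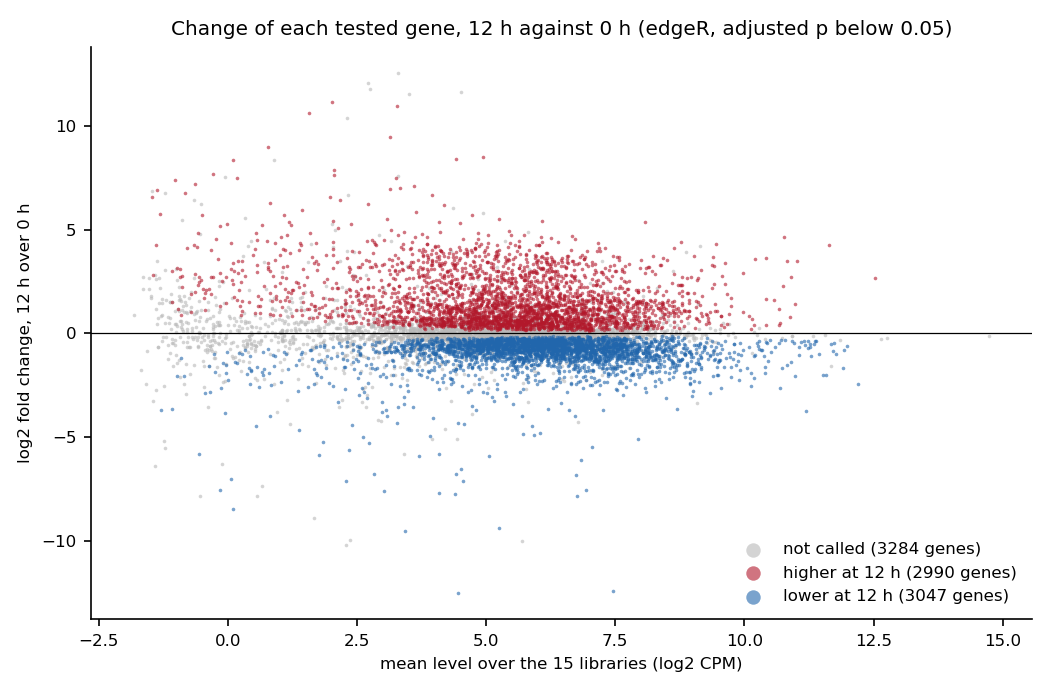
Log2 fold change of 12 h over 0 h (vertical axis) against the mean level over the 15 libraries in log2 CPM (horizontal axis), 1 point per tested gene. The 2990 genes called higher at 12 h had a median of 1.24, further from 0 than the -0.75 of the 3047 called lower.

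Among the genes with the largest rises, Golgin candidate 5 (NO15G01410), named after a plant protein of the Golgi membrane, had 107, 92.7 and 93.6 CPM at 12 h, against 1.81, 2.99 and 2.44 CPM at 0 h. All 3 libraries of 12 h stood far above all 3 of 0 h (log2 fold change 5.33 ± 0.33, edgeR adjusted p = 3.8e-08). Its mean was also low at the other times, with 2.41, 3.30, 97.8, 3.09 and 5.78 CPM at 0, 6, 12, 24 and 48 h, so 12 h stood above 6 h (log2 fold change 4.89 ± 0.32, edgeR adjusted p = 4.0e-07) and 24 h below 12 h (log2 fold change -4.98 ± 0.32, edgeR adjusted p = 3.0e-07). A gene of the NRT1/PTR family (NO19G01670), plant transporters of nitrate and peptides, had 44.9, 36.4 and 38.5 CPM at 12 h, against 0.525, 0.648 and 0.462 CPM at 0 h. The groups did not overlap (log2 fold change 6.18 ± 1.65, edgeR adjusted p = 0.0056). At 6 h its libraries were far apart, and the mean at 24 h was 0.569 CPM.

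A gene annotated as sister chromatid cohesion 1 protein 4 (NO17G01980, 1 of 2 so named, with 1 higher and 1 lower), a subunit of the cohesin ring that holds sister chromatids together, had 41.9, 31.2 and 26.7 CPM at 12 h, against 0.350, 0.299 and 0.126 CPM at 0 h. The level at 0 h was below 1 CPM and each library of 12 h stood far above it (log2 fold change 7.003 ± 1.51, edgeR adjusted p = 0.0014). The F-box/WD-40 protein (NO06G03260), of a family that picks targets for ubiquitin ligases, averaged 38.4 ± 2.53 CPM at 12 h, against 0.657 ± 0.159 CPM at 0 h (log2 fold change 5.85 ± 0.45, edgeR adjusted p = 2.5e-07). A protein glucosyltransferase (NO07G04690) averaged 18.7 ± 2.59 CPM at 12 h, against 0.406 ± 0.116 CPM at 0 h (log2 fold change 5.52 ± 0.50). Rhomboid-like protein 15 (NO07G03110), of a family of proteases that cut within membranes, averaged 102 ± 9.83 CPM at 12 h, against 3.84 ± 1.70 CPM at 0 h (log2 fold change 4.73 ± 0.87). A putative N(6)-adenine DNA methyltransferase (NO10G02000) had 0 counts in all 3 libraries of 0 h and 14.8, 10.5 and 11.1 CPM in those of 12 h, at least 80.8-fold higher when each 0 h library is set at the limit of 3 counts that a count of 0 allows (counting error only). The acidic ribosomal protein P2B (NO06G04320) also ranked among the largest rises, but its 12 h libraries lay far apart, at 0.699, 117 and 119 CPM, against 0.117, 0.249 and 0.294 CPM at 0 h (log2 fold change 8.41 ± 2.29, edgeR adjusted p = 0.0064).

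The gene annotated as protein nlrc3 (NO17G01370), a name from animal immune receptors with leucine-rich repeats, had 0.233, 0.288 and 0.312 CPM at 12 h, against 187, 177 and 198 CPM at 0 h. Its 0 h libraries were all high and its 12 h libraries all below 1 CPM (log2 fold change -9.38 ± 0.17, edgeR adjusted p = 2.8e-11). Its means of 187, 0.498, 0.278, 0.350 and 0.549 CPM at 0, 6, 12, 24 and 48 h set 0 h apart from all later times. A BTB/POZ and MATH domain protein (NO19G02500), of a family of adaptors for ubiquitin ligases in plants, had 1 count in each library of 12 h and 44.5, 41.5 and 45.5 CPM in those of 0 h, a ratio of 0 h to 12 h of 802 with an exact 95% interval from 274 to 3892 that covers counting error only.

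A phosphoesterase related to phosphatidic acid phosphatases (NO11G03580), enzymes that make diacylglycerol from phosphatidic acid, had 6.62, 10.7 and 16.2 CPM at 12 h, against 373, 399 and 377 CPM at 0 h. Each library of 12 h was far below each of 0 h (log2 fold change -5.10 ± 0.96, edgeR adjusted p = 5.1e-04). Its mean at 48 h, 381 CPM, was back near that of 0 h. Ferrochelatase-2 (NO07G01550), which inserts iron into protoporphyrin to make haem, averaged 3.26 ± 0.368 CPM at 12 h, against 94.2 ± 2.81 CPM at 0 h (log2 fold change -4.85 ± 1.34, edgeR adjusted p = 0.007). An epimerase/dehydratase that uses NAD (NO12G03540, 1 of 4 so named, with 1 higher and 2 lower) averaged 4.50 ± 1.87 CPM at 12 h, against 125 ± 3.83 CPM at 0 h (log2 fold change -4.79 ± 0.38). A basic-leucine zipper protein (NO14G02160, 1 of 2 so named, with 1 higher and 1 lower) and a PDZ domain protein (NO10G02750, 1 of 5 so named, with 1 higher and 4 lower) fell to 0.375 ± 0.113 CPM and 0.442 ± 0.110 CPM at 12 h, against 51.1 ± 1.77 CPM and 41.3 ± 1.13 CPM at 0 h. DESeq2 gave no adjusted p for either. Within-time spread was large for 208 tested genes, which had under 10 counts in a library and at least 100 in another of the same time. Of these, 16 were called higher and 14 lower.

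**Figure D2:**
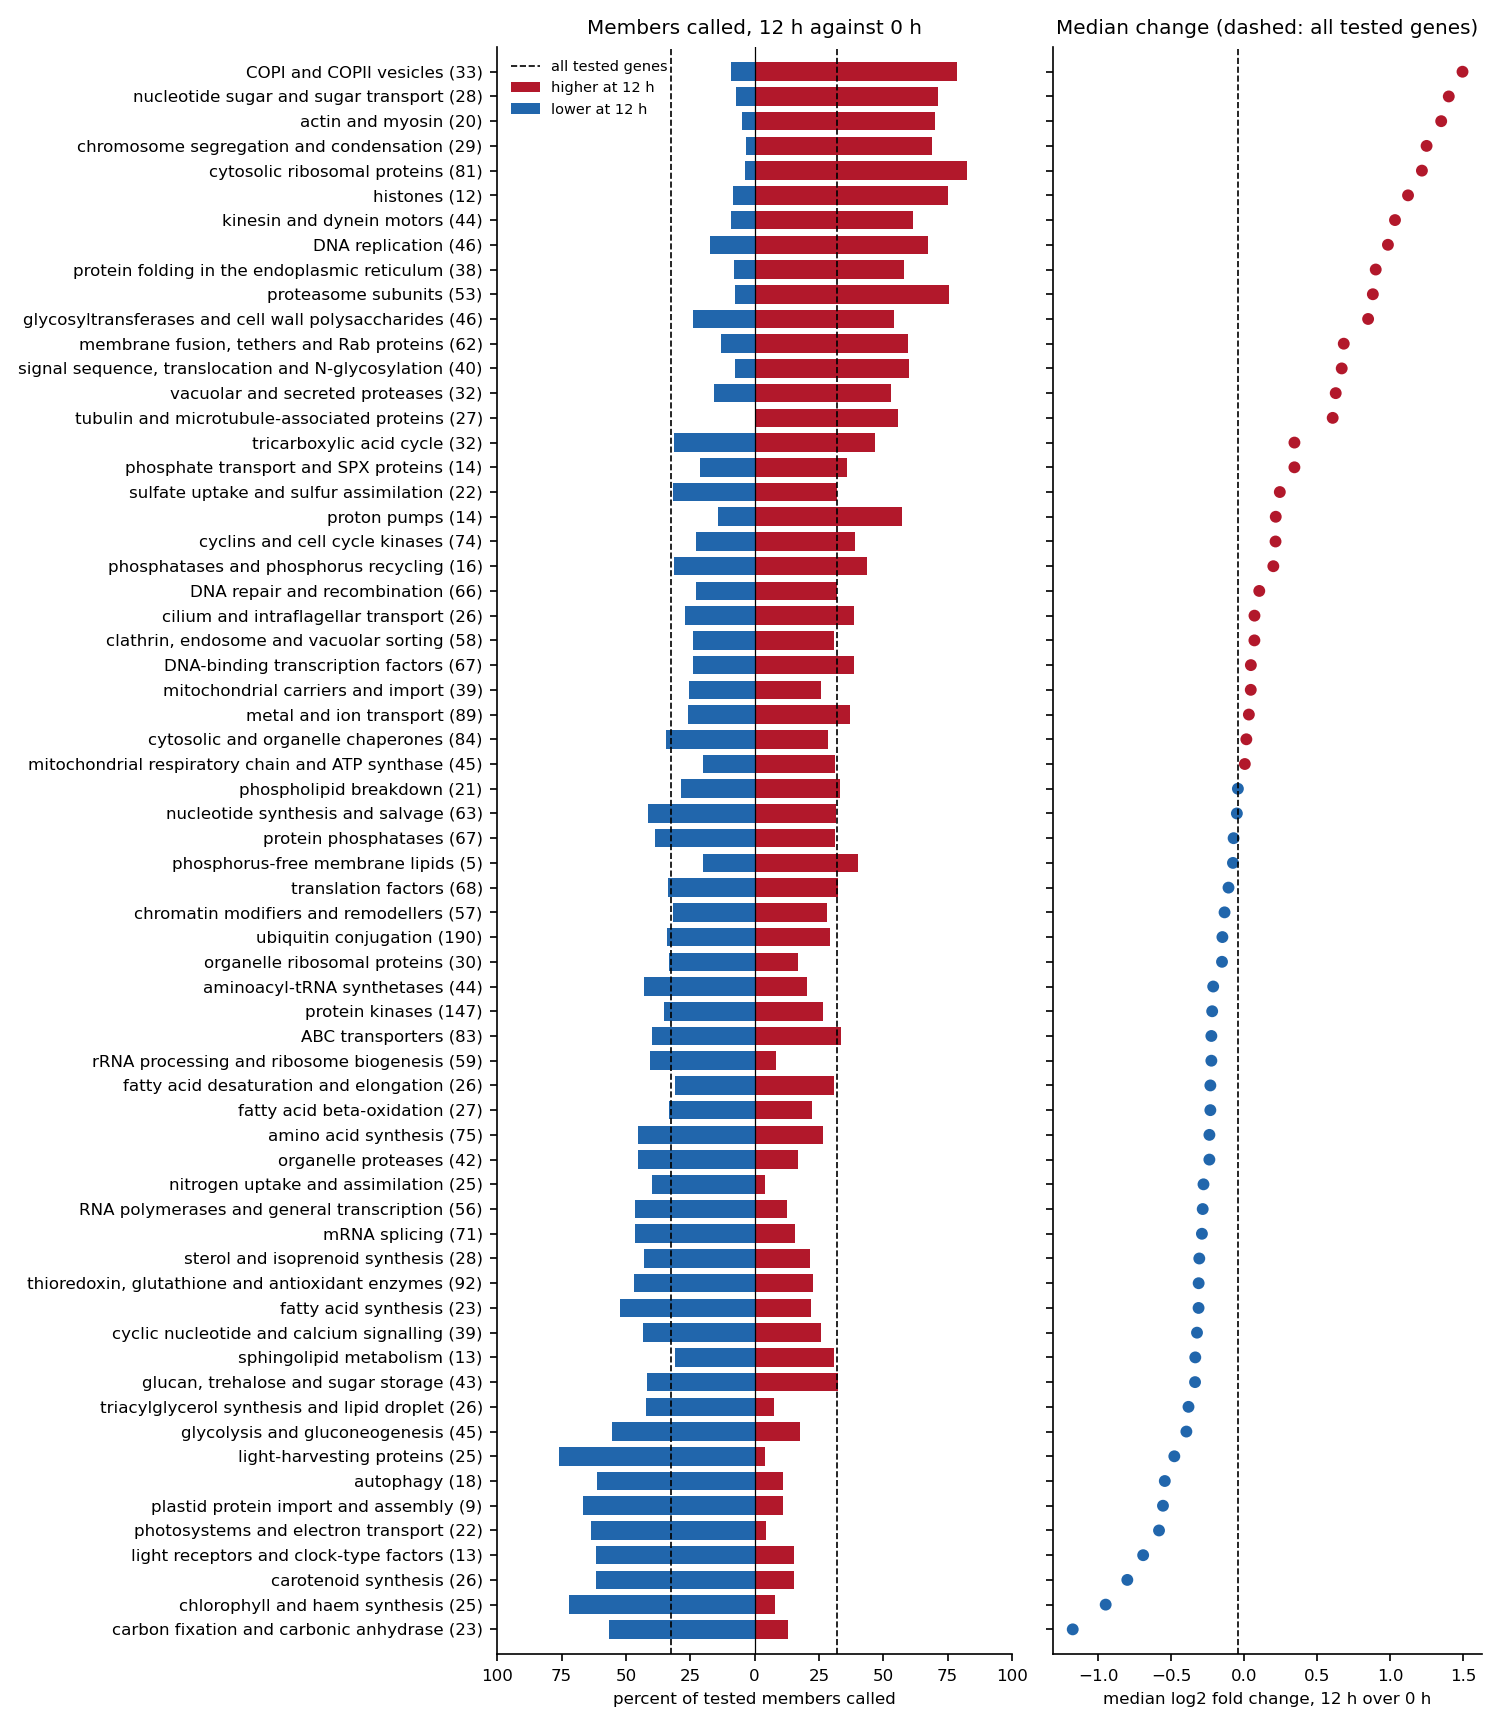
Gene lists ordered by their median change, with the number of tested members in brackets. Left, percent of tested members called higher (red, to the right) and lower (blue, to the left) at 12 h. Right, median log2 fold change of 12 h over 0 h. Dashed lines mark all 9321 tested genes (32.1% higher, 32.7% lower, median -0.04), and the lists run from COPI and COPII vesicles at 1.496 to carbon fixation at -1.17.

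Genes for protein folding in the endoplasmic reticulum stood higher at 12 h. In this list 22 of 38 tested genes were higher and 3 lower, with a median of 0.90, and its share of all counts was 1.22% to 1.29% at 12 h and 0.350% to 0.354% at 0 h. Luminal-binding protein 5 (NO15G01500), the BiP chaperone that binds unfolded chains inside the endoplasmic reticulum, had 3398, 3689 and 3699.9 CPM at 12 h, against 647, 800.0 and 759 CPM at 0 h. The groups were far apart (log2 fold change 2.29 ± 0.10, edgeR adjusted p = 3.1e-09). Its partner chaperone endoplasmin was annotated at 2 genes that went opposite ways. The first (NO09G02640) had 2862, 2612 and 2748 CPM at 12 h, against 238, 218 and 233 CPM at 0 h (log2 fold change 3.58 ± 0.15, edgeR adjusted p = 3.3e-09), while the other (NO03G05760) fell to 115 ± 6.40 CPM at 12 h, against 179 ± 5.36 CPM at 0 h (log2 fold change -0.63 ± 0.07). All 5 genes named protein disulfide-isomerase 5-4, after enzymes that join cysteines in folding proteins, were higher. NO05G01090 averaged 180.0 ± 4.89 CPM at 12 h, against 21.0 ± 0.422 CPM at 0 h (log2 fold change 3.10 ± 0.11). NO05G04020 averaged 127 ± 12.9 CPM at 12 h, against 15.9 ± 1.49 CPM at 0 h (log2 fold change 2.99 ± 0.16). The co-chaperone P58IPK (NO01G04680, 1 of 2 so named, with 1 higher and 1 lower) was lower, with 85.0 ± 2.39 CPM at 12 h, against 102 ± 2.03 CPM at 0 h (log2 fold change -0.26 ± 0.08).

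Of the genes that bring proteins into the endoplasmic reticulum and attach their first sugars, 24 of 40 tested were higher at 12 h and 3 lower, with a median of 0.67. The beta subunit of the Sec61 channel (NO27G01380), through which new chains cross the membrane, had 143, 153 and 161 CPM at 12 h, against 32.3, 33.8 and 29.96 CPM at 0 h (log2 fold change 2.25 ± 0.10, edgeR adjusted p = 5.4e-09), without overlap. The glucosyltransferases that finish the lipid-linked sugar donor of N-glycosylation were higher as well. The enzyme acting on Man9GlcNAc2 (NO27G00200) averaged 59.6 ± 3.02 CPM at 12 h, against 6.73 ± 0.508 CPM at 0 h (log2 fold change 3.15 ± 0.09). The next enzyme of the chain (NO02G05590) averaged 32.9 ± 5.04 CPM at 12 h, against 5.62 ± 0.505 CPM at 0 h (log2 fold change 2.55 ± 0.14). Dolichol-phosphate mannosyltransferase subunit 1 (NO26G00310, 1 of 2 so named, with 1 higher and 1 lower), which supplies mannose for the same donor, was lower, with 13.04 ± 1.09 CPM at 12 h, against 23.8 ± 1.98 CPM at 0 h (log2 fold change -0.87 ± 0.12).

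Coat proteins of the vesicles that run between the endoplasmic reticulum and the Golgi had the highest median of the 64 lists, 1.496. Here 26 of 33 tested genes were higher and 3 lower, and 20 were at least 2-fold higher. The list took 0.680% to 0.712% of the counts at 12 h and 0.205% to 0.272% at 0 h. Coatomer subunit epsilon-1 (NO07G04560) of the COPI coat had 224, 276 and 263 CPM at 12 h, against 46.5, 43.7 and 37.6 CPM at 0 h (log2 fold change 2.58 ± 0.12, edgeR adjusted p = 4.7e-09). The cargo adaptor Erv26 (NO18G01340), known from yeast COPII vesicles, had 180.1, 218 and 208 CPM at 12 h, against 25.04, 24.9 and 25.05 CPM at 0 h (log2 fold change 3.01 ± 0.19, edgeR adjusted p = 4.1e-08). In both genes every library of 12 h lay above every library of 0 h. AGD12, a GTPase-activating protein that switches the small GTPase ARF off (NO28G01770), averaged 208 ± 30.4 CPM at 12 h, against 20.4 ± 0.791 CPM at 0 h (log2 fold change 3.35 ± 0.18). A gene for ADP-ribosylation factor 1 itself (NO11G03550, 1 of 4 so named, with 3 higher and 1 lower) was lower, with 51.6 ± 10.4 CPM at 12 h, against 97.7 ± 21.7 CPM at 0 h (log2 fold change -0.92 ± 0.23).

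Among SNAREs, tethers and Rab proteins, which bring vesicles to their target membrane, 37 of 62 tested genes were higher and 8 lower (median 0.68). Syntaxin-43 (NO05G04750), a SNARE of the trans-Golgi network in plants, had 76.5, 70.8 and 86.95 CPM at 12 h, against 5.43, 4.94 and 5.29 CPM at 0 h (log2 fold change 3.90 ± 0.18, edgeR adjusted p = 4.7e-09). The 12 h libraries were all far above those of 0 h. A SNARE-associated Golgi protein (NO06G03020, 1 of 4 so named, with 3 higher and 0 lower) averaged 88.7 ± 10.3 CPM at 12 h, against 12.6 ± 0.174 CPM at 0 h (log2 fold change 2.82 ± 0.23). A VAMP72-type SNARE (NO26G01650, 1 of 2 so named, with 1 higher and 1 lower), of a family at the plasma membrane of plants, was lower, with 90.1 ± 4.37 CPM at 12 h, against 159 ± 8.67 CPM at 0 h (log2 fold change -0.82 ± 0.11). The list of clathrin, endosomes and vacuolar sorting did not follow: 18 of 58 were higher and 14 lower, shares below the 32.1% and 32.7% of all tested genes, with a median of 0.07. Among its members, Vps52 (NO15G02690) and Vps54 (NO01G02760), subunits of a tether at the trans-Golgi network, were higher (log2 fold changes 2.31 ± 0.15 and 2.28 ± 0.24), and the ESCRT subunit Vps25 (NO07G02140) and the lipid kinase Vps34 (NO11G01400, 1 of 2 so named, with 0 higher and 1 lower) were lower (-1.04 ± 0.10 and -0.83 ± 0.05).

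Transporters that load nucleotide sugars into the Golgi, with other sugar transporters, had 20 of 28 tested genes higher and 2 lower (median 1.40). All 3 genes named GDP-fucose transporter 1 were higher. NO08G01620 had 86.7, 91.6 and 97.1 CPM at 12 h, against 3.85, 3.69 and 4.33 CPM at 0 h (log2 fold change 4.53 ± 0.16, edgeR adjusted p = 1.1e-09). NO10G00650 averaged 154 ± 4.98 CPM at 12 h, against 15.1 ± 1.80 CPM at 0 h (log2 fold change 3.35 ± 0.15). CMP-sialic acid transporter 2 (NO22G01080) averaged 60.4 ± 15.5 CPM at 12 h, against 3.91 ± 0.908 CPM at 0 h (log2 fold change 3.95 ± 0.35). None of the 3 genes with values here had a 12 h library within the range of 0 h. The plastid glucose-6-phosphate translocator 1 (NO02G01930) was lower, with 165 ± 12.8 CPM at 12 h, against 512 ± 229 CPM at 0 h (log2 fold change -1.63 ± 0.37).

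Of the glycosyltransferases, which build wall and protein-bound sugars, 25 of 46 were higher and 11 lower, and 22 were at least 2-fold higher. Their median was 0.85, but their summed share of counts was close at both times, 0.415% to 0.428% at 12 h and 0.420% to 0.437% at 0 h. Probable xyloglucan glycosyltransferase 5 (NO11G01690, 1 of 3 so named, with 0 higher and 1 lower) was among the members that fell, with 519, 456 and 484 CPM at 12 h, against 1583, 1618 and 1653 CPM at 0 h (log2 fold change -1.73 ± 0.08, edgeR adjusted p = 4.7e-09), and a beta-1,4-mannosyltransferase (NO08G03030) was lower too (log2 fold change -2.22 ± 0.20). Against them, an N-acetylglucosaminyltransferase acting on glycoproteins (NO13G03450) had 288, 327 and 326 CPM at 12 h, against 23.9, 25.9 and 22.4 CPM at 0 h (log2 fold change 3.70 ± 0.24, edgeR adjusted p = 6.0e-08). In the list of glucan, trehalose and sugar storage, 14 of 43 genes were higher and 18 lower (median -0.34). Genes for enzymes that cut cellulose went both ways. Of the 9 tested genes annotated as endoglucanases, 4 were higher and 3 lower. Endoglucanase 24 (NO27G01690) averaged 344 ± 59.7 CPM at 12 h, against 34.0 ± 2.81 CPM at 0 h (log2 fold change 3.34 ± 0.22). Endoglucanase 15 (NO03G05340) averaged 219.9 ± 25.5 CPM at 12 h, against 17.4 ± 1.48 CPM at 0 h (log2 fold change 3.66 ± 0.27). A Barwin-related endoglucanase (NO05G00180) was lower (log2 fold change -1.64 ± 0.13). Exoglucanase 3 (NO23G00130), which acts on chain ends, averaged 978 ± 114 CPM at 12 h, against 85.0 ± 9.60 CPM at 0 h (log2 fold change 3.52 ± 0.23).

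**Figure D3:**
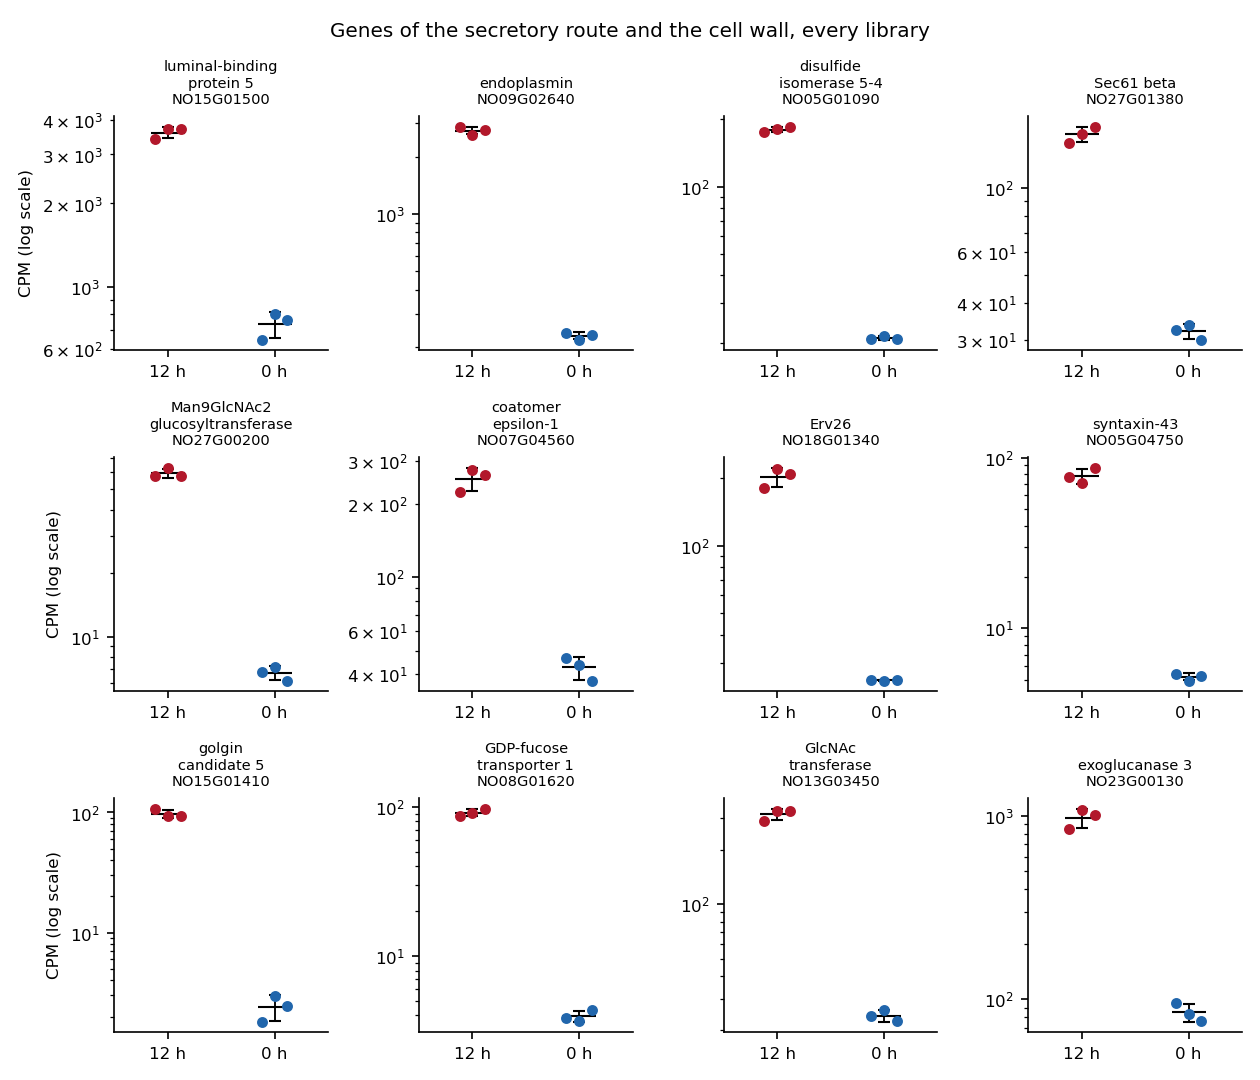
Level in CPM (log axis) of 12 genes of the secretory route and the cell wall in each library of 12 h (red, left) and 0 h (blue, right), with the mean as a bar and the SD as whiskers, n = 3. In each panel the 3 libraries of 12 h lie above the 3 of 0 h, which the rule for named genes required. The 12 genes were picked from members called higher, and their lists also hold members called lower.

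Genes of tubulin, of motors and of actin and myosin were called higher more often than lower at 12 h. Of the tubulins and microtubule-associated proteins 15 of 27 tested genes were higher and 0 lower (median 0.61). Of the kinesin and dynein motors 27 of 44 tested genes were higher and 4 lower (median 1.03). Of actin and myosin 14 of 20 tested genes were higher and 1 lower (median 1.35). Tubulin alpha-2 (NO12G02410), a building block of microtubules, had 3811, 4516 and 4674 CPM at 12 h, against 398, 393 and 365 CPM at 0 h. Every library of 12 h was far above every library of 0 h (log2 fold change 3.49 ± 0.15, edgeR adjusted p = 3.9e-09). All 3 genes named tubulin beta-5 were higher. NO14G00790 averaged 468 ± 23.8 CPM at 12 h, against 39.8 ± 0.477 CPM at 0 h (log2 fold change 3.55 ± 0.18). NO04G01220 averaged 105 ± 11.4 CPM at 12 h, against 7.80 ± 0.240 CPM at 0 h (log2 fold change 3.75 ± 0.16). Among the motors, a kinesin-like protein (NO03G04880) averaged 209.8 ± 21.9 CPM at 12 h, against 16.9 ± 1.71 CPM at 0 h (log2 fold change 3.63 ± 0.24). The kinesin KLP1 (NO04G00180) averaged 44.0 ± 4.27 CPM at 12 h, against 3.01 ± 0.419 CPM at 0 h (log2 fold change 3.87 ± 0.19). An intermediate chain of the flagellar outer dynein arm (NO29G01170) was lower (log2 fold change -0.60 ± 0.14). The list of cilia and intraflagellar transport, which holds that gene too, was nearer to all genes: 10 of 26 tested genes were higher and 7 lower (median 0.07). The count of lower motor genes was 2 without 0 h replicate c, and 1 tubulin-list gene was lower without 0 h replicate a.

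Of the 3 genes named actin, which forms the microfilaments, 2 were higher and the third, NO03G02610, averaged 1173 ± 260.1 CPM at 12 h, against 145 ± 111 CPM at 0 h (log2 fold change 3.02 ± 1.71, edgeR adjusted p = 0.14). NO03G02590 had 1328, 1964 and 1844 CPM at 12 h, against 383, 381 and 367 CPM at 0 h. The groups did not overlap (log2 fold change 2.18 ± 0.17, edgeR adjusted p = 3.2e-07). Its means were 377, 559, 1712, 593 and 63.7 CPM at 0, 6, 12, 24 and 48 h. Myosin-14 (NO04G03010) and a calmodulin-like myosin light chain (NO16G02780) were higher too (log2 fold changes 2.61 ± 0.19 and 3.41 ± 0.26), and myosin-8 (NO22G01250) was lower, with 87.6 ± 17.4 CPM at 12 h, against 155 ± 22.6 CPM at 0 h (log2 fold change -0.82 ± 0.14).

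Genes of DNA replication and mitosis were mostly higher. In chromosome segregation and condensation 20 of 29 tested genes were higher and 1 lower (median 1.25). In DNA replication 31 of 46 tested genes were higher and 8 lower (median 0.98). Among histones 9 of 12 tested genes were higher and 1 lower (median 1.12). Single calls decide the small counts of lower genes here: without 12 h replicate a 2 segregation genes were lower, and without 12 h replicate b none. The histone gene called lower lost its call when any library but 12 h replicate b or c or 6 h replicate b or c was left out. The small chain of ribonucleotide reductase (NO04G04660), which makes the deoxynucleotides for DNA synthesis, had 211, 225 and 229 CPM at 12 h, against 9.05, 8.03 and 8.405 CPM at 0 h. All 12 h libraries were far above all 0 h libraries (log2 fold change 4.71 ± 0.23, edgeR adjusted p = 7.5e-09). The large subunit of the same enzyme was annotated at 2 genes. NO17G00650 averaged 67.6 ± 5.66 CPM at 12 h, against 69.7 ± 1.69 CPM at 0 h (log2 fold change -0.04 ± 0.09, edgeR adjusted p = 0.71). NO09G00830 was lower, and its libraries differed widely within a time, with 0.187, 0.173 and 2.25 CPM at 12 h, against 88.4, 58.9 and 4.58 CPM at 0 h (log2 fold change -5.89 ± 1.62, edgeR adjusted p = 0.0067). Its log2 fold change was -5.20 without 0 h replicate a and -8.09 without 12 h replicate c.

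The replicative helicase subunit MCM3 (NO02G05290) averaged 338 ± 56.5 CPM at 12 h, against 43.1 ± 0.964 CPM at 0 h (log2 fold change 2.97 ± 0.17). DNA topoisomerase 2 (NO14G02270), which untangles chromosomes, averaged 452 ± 31.7 CPM at 12 h, against 56.2 ± 5.25 CPM at 0 h (log2 fold change 3.01 ± 0.17). The condensin subunit SMC4 (newGene_158, a newly assembled gene) averaged 54.6 ± 4.17 CPM at 12 h, against 3.61 ± 0.670 CPM at 0 h (log2 fold change 3.91 ± 0.27). A variant of histone H2A (NO22G01340), a protein of the nucleosome, had 1404, 1894 and 1558 CPM at 12 h, against 162, 168 and 167 CPM at 0 h, without overlap (log2 fold change 3.29 ± 0.18, edgeR adjusted p = 1.8e-08). Histone H1 (NO03G01950) averaged 99.9 ± 7.08 CPM at 12 h, against 13.96 ± 1.58 CPM at 0 h (log2 fold change 2.84 ± 0.20). Among chromatin modifiers 16 of 57 tested genes were higher and 18 lower (median -0.13). The histone chaperone ASF1A (NO07G02280) averaged 129 ± 7.05 CPM at 12 h, against 36.4 ± 1.33 CPM at 0 h (log2 fold change 1.83 ± 0.10).

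Cyclins and cell cycle kinases as a list had 29 higher and 17 lower of 74 (median 0.21), with large single changes among them. Cyclin-A1-1 (NO13G01690), a regulator of the S and G2 phases in plants, had 53.0, 41.4 and 50.1 CPM at 12 h, against 0.875, 1.196 and 0.714 CPM at 0 h (log2 fold change 5.69 ± 0.28, edgeR adjusted p = 7.7e-09). The kinase Nek2 (NO17G02980, 1 of 5 so named, with 2 higher and 2 lower), known from the centrosome in animals, averaged 79.4 ± 4.19 CPM at 12 h, against 1.73 ± 0.107 CPM at 0 h (log2 fold change 5.52 ± 0.20). Aurora-2 (NO04G04260, 1 of 2 so named, with 1 higher and 0 lower), a mitotic kinase, averaged 38.6 ± 1.23 CPM at 12 h, against 2.07 ± 0.562 CPM at 0 h (log2 fold change 4.22 ± 0.25). Cyclin-A1-1 was also high at 6 h, with means of 0.929, 61.9, 48.2, 16.002 and 5.46 CPM at 0, 6, 12, 24 and 48 h. The mitotic-specific cyclin S13-7 (NO23G01320) was lower, with 124 ± 28.3 CPM at 12 h, against 388 ± 8.197 CPM at 0 h (log2 fold change -1.65 ± 0.16). In DNA repair and recombination, 21 of 66 genes were higher and 15 lower (median 0.10), near the shares of all genes.

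Of the cytosolic ribosomal proteins 67 of 81 tested genes were higher and 3 lower (median 1.22), and 55 were at least 2-fold higher. Their share of all counts was 2.63% to 3.22% at 12 h and 1.36% to 1.44% at 0 h. Protein L37a (NO02G04340) of the large subunit had 238, 295 and 293 CPM at 12 h, against 81.6, 82.6 and 91.7 CPM at 0 h, without overlap (log2 fold change 1.69 ± 0.10, edgeR adjusted p = 3.1e-08). Proteins L15 (NO04G04900) and L26-2 (NO13G00800, 1 of 2 so named, with 1 higher and 1 lower) were lower by small amounts (log2 fold changes -0.28 ± 0.07 and -0.22 ± 0.05). Elongation factor 1-alpha 4 (NO22G01450), which brings aminoacyl-tRNA to the ribosome, averaged 1182 ± 175 CPM at 12 h, against 479.8 ± 25.8 CPM at 0 h (log2 fold change 1.30 ± 0.09). Initiation factor 5A-2 (NO04G01790) averaged 383 ± 24.1 CPM at 12 h, against 151 ± 5.50 CPM at 0 h (log2 fold change 1.35 ± 0.09). In the list of all translation factors 22 of 68 tested genes were higher and 23 lower (median -0.11). In rRNA processing and ribosome biogenesis 5 of 59 tested genes were higher and 24 lower (median -0.22), 30 were not called and 4 were at least 2-fold lower. The processing factor RRP5 (NO16G02440) averaged 126 ± 5.60 CPM at 12 h, against 285 ± 13.3 CPM at 0 h (log2 fold change -1.18 ± 0.08). Organelle ribosomal proteins had 5 higher and 10 lower of 30 (median -0.15), and aminoacyl-tRNA synthetases 9 and 19 of 44 (median -0.21).

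In mRNA splicing 11 of 71 tested genes were higher and 33 lower (median -0.29). In RNA polymerases and general transcription 7 of 56 tested genes were higher and 26 lower (median -0.28). Most of these falls were small: 2 splicing genes and 2 transcription genes were at least 2-fold lower. Splicing factor 3b subunit 1 (NO16G02470), which binds the branch site of introns, averaged 183 ± 3.36 CPM at 12 h, against 389 ± 14.9 CPM at 0 h (log2 fold change -1.09 ± 0.09). RNA polymerase II subunit 2 (NO01G01150) averaged 149.7 ± 19.1 CPM at 12 h, against 267 ± 6.84 CPM at 0 h (log2 fold change -0.83 ± 0.09).

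The proteasome, which degrades proteins marked with ubiquitin, had 40 of 53 tested subunits higher and 4 lower (median 0.88), with 21 at least 2-fold higher. Regulatory subunit 8 (NO15G01020) had 442, 485 and 459 CPM at 12 h, against 167, 160.4 and 155 CPM at 0 h (log2 fold change 1.52 ± 0.09, edgeR adjusted p = 1.8e-08). Proteasome activator subunit 1 (NO01G03010) averaged 151 ± 4.42 CPM at 12 h, against 43.03 ± 1.97 CPM at 0 h (log2 fold change 1.81 ± 0.06). Subunit beta type-5 (NO02G02900) was lower, with 29.8 ± 2.31 CPM at 12 h, against 59.1 ± 1.82 CPM at 0 h (log2 fold change -0.99 ± 0.16). The count of lower subunits was 2 without 0 h replicate b or c, 12 h replicate b or 48 h replicate b. The much larger list of ubiquitin conjugation did not lean that way, with 56 higher and 65 lower of 190 (median -0.15). Cullin-1 (NO25G02070, 1 of 4 so named, with 2 higher and 2 lower), the scaffold of a class of ubiquitin ligases, had 37.1, 43.2 and 44.0 CPM at 12 h, against 2.10, 2.89 and 2.10 CPM at 0 h (log2 fold change 4.13 ± 0.23, edgeR adjusted p = 2.0e-08).

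Proteases of the vacuole and of secretion had 17 higher and 5 lower of 32 (median 0.63). The largest fall of the list was at NO22G02190, with a log2 fold change of -5.46, and -6.22 without 12 h replicate c. Serine carboxypeptidase-like 50 (NO06G00040) had 201, 222 and 229.6 CPM at 12 h, against 10.4, 10.8 and 9.12 CPM at 0 h, without overlap (log2 fold change 4.42 ± 0.16, edgeR adjusted p = 1.3e-09). Cysteine proteinase EP-B 1 (NO13G00630) was higher (log2 fold change 3.58 ± 0.15) and aspartic proteinase A1 (NO08G00990) lower, with 75.5 ± 7.12 CPM at 12 h, against 316 ± 28.8 CPM at 0 h (log2 fold change -2.07 ± 0.13). In autophagy, by which cells digest their own contents in the vacuole, 2 of 18 tested genes were higher and 11 lower (median -0.54). ATG2 (NO14G00700, 1 of 2 so named, with 0 higher and 1 lower), ATG13 (NO16G02570) and ATG9 (NO14G01160), known in yeast from the start and growth of the autophagosome, had log2 fold changes of -1.99 ± 0.15, -1.25 ± 0.09 and -1.22 ± 0.09, and ATG17 (NO23G00660) was higher, with 31.7 ± 3.11 CPM at 12 h, against 10.8 ± 2.13 CPM at 0 h (log2 fold change 1.55 ± 0.16).

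Genes of pigment synthesis, photosystems and light harvesting were called lower more often than higher at 12 h. In chlorophyll and haem synthesis 2 of 25 tested genes were higher and 18 lower (median -0.95). In carotenoid synthesis 4 of 26 tested genes were higher and 16 lower (median -0.80). In photosystems and electron transport 1 of 22 tested genes were higher and 14 lower (median -0.58). In light-harvesting proteins 1 of 25 tested genes were higher and 19 lower (median -0.48). Magnesium chelatase subunit ChlD (NO16G00200), at the branch that leads to chlorophyll, had 356, 309 and 306 CPM at 12 h, against 1299.7, 1322 and 1314 CPM at 0 h. All 12 h libraries were below all 0 h libraries (log2 fold change -2.02 ± 0.07, edgeR adjusted p = 1.3e-09). Subunit ChlH (NO22G01810, 1 of 3 so named, with 0 higher and 2 lower) averaged 892 ± 137 CPM at 12 h, against 3641 ± 125 CPM at 0 h (log2 fold change -2.03 ± 0.11). Phytoene synthase (NO20G01840), the entry to carotenoids, averaged 119 ± 6.04 CPM at 12 h, against 504 ± 12.6 CPM at 0 h (log2 fold change -2.08 ± 0.13). Lycopene beta cyclase (NO10G02110) averaged 61.5 ± 2.75 CPM at 12 h, against 306 ± 8.22 CPM at 0 h (log2 fold change -2.31 ± 0.06). Zeaxanthin epoxidase (NO16G00210, 1 of 3 so named, with 1 higher and 2 lower), of the xanthophyll cycle, was higher, with 53.1 ± 12.7 CPM at 12 h, against 8.14 ± 1.55 CPM at 0 h (log2 fold change 2.71 ± 0.27). Without 12 h replicate a or b, the count of higher carotenoid genes was 2. The single photosystem gene called higher lost its call without any 1 of the 0 h libraries or 12 h replicate a, and the chlorophyll genes called higher were 1 without 12 h replicate a.

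Among light-harvesting proteins, chlorophyll a-b binding protein 1 (NO08G03500) averaged 2406 ± 92.6 CPM at 12 h, against 4772 ± 120.1 CPM at 0 h (log2 fold change -0.99 ± 0.06). Gene NO18G00330, 1 of 7 so named, with 1 higher and 6 lower, named after the fucoxanthin antenna of diatoms and brown algae, was the only member called higher, with 467, 457 and 467 CPM at 12 h, against 135, 133 and 137 CPM at 0 h (log2 fold change 1.78 ± 0.07, edgeR adjusted p = 1.7e-09). The gamma chain of the plastid ATP synthase (NO23G00520) averaged 761 ± 47.7 CPM at 12 h, against 1615 ± 35.3 CPM at 0 h (log2 fold change -1.08 ± 0.05). A plastid RNA pseudouridine synthase (NO20G01690) was among the genes with most counts at 0 h and had 463, 470.0 and 424 CPM at 12 h, against 5713, 6182 and 5962 CPM at 0 h (log2 fold change -3.72 ± 0.24, edgeR adjusted p = 6.1e-08).

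In carbon fixation 3 of 23 tested genes were higher and 13 lower (median -1.17), with 12 at least 2-fold lower, the lowest median of the 64 lists. Sedoheptulose-1,7-bisphosphatase (NO11G01900) of the Calvin cycle had 406, 397 and 371 CPM at 12 h, against 2242, 2262 and 2237 CPM at 0 h, far apart (log2 fold change -2.52 ± 0.09, edgeR adjusted p = 1.0e-09). Alpha carbonic anhydrase 4 (NO20G00630), of enzymes that convert bicarbonate and CO2, averaged 199.8 ± 16.2 CPM at 12 h, against 1479 ± 27.6 CPM at 0 h (log2 fold change -2.89 ± 0.11). In glycolysis and gluconeogenesis 8 of 45 tested genes were higher and 25 lower (median -0.40). The largest fall of the list was at NO01G03170 (log2 fold change -12.4 ± 2.36, edgeR adjusted p = 5.4e-04). The SE of this gene was large, and its log2 fold change was -12.97 without 0 h replicate a, so the size of its fall is uncertain. Genes for the same step moved apart. Plastid glyceraldehyde-3-phosphate dehydrogenase (NO27G00910) averaged 2008 ± 84.1 CPM at 12 h, against 6378 ± 203 CPM at 0 h (log2 fold change -1.67 ± 0.08). The cytosolic form (NO27G00920) averaged 2040.0 ± 107 CPM at 12 h, against 1189 ± 7.99 CPM at 0 h (log2 fold change 0.78 ± 0.05). Phosphoglycerate kinase NO06G04120 averaged 553 ± 11.1 CPM at 12 h, against 2096 ± 47.2 CPM at 0 h (log2 fold change -1.92 ± 0.12). NO20G00840, of the same name, averaged 101 ± 13.4 CPM at 12 h, against 39.5 ± 1.93 CPM at 0 h (log2 fold change 1.35 ± 0.16).

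In the tricarboxylic acid cycle 15 of 32 tested genes were higher and 10 lower (median 0.34). The largest fall of the list was at NO02G04180 (log2 fold change -3.38 ± 0.93, edgeR adjusted p = 0.0068). Its log2 fold change was -2.42 without 0 h replicate a and -5.76 without 12 h replicate c. The E1 component of oxoglutarate dehydrogenase (NO16G00280) was higher, with 138 ± 2.86 CPM at 12 h, against 29.9 ± 2.15 CPM at 0 h (log2 fold change 2.21 ± 0.12), and component 4 of the acetyltransferase of pyruvate dehydrogenase (NO18G02350) lower, with 413 ± 6.97 CPM at 12 h, against 1257 ± 19.2 CPM at 0 h (log2 fold change -1.60 ± 0.07). The median of the respiratory chain changed sign with the scaling, as did those of mitochondrial carriers, metal and ion transport, DNA-binding transcription factors and chaperones, so no direction is given for these 5 lists. Of the respiratory chain 14 genes were higher and 9 lower of 45, of mitochondrial carriers 10 and 10 of 39, of metal and ion transport 33 and 23 of 89, and of chaperones 24 and 29 of 84. In the list of proton pumps, which holds mostly subunits of the V-type ATPase, 8 of 14 tested genes were higher and 2 lower (median 0.22), and its share of counts was 0.556% to 0.578% at 12 h and 0.411% to 0.419% at 0 h. Outside that list, the plasma membrane proton pump ATPase 1 (NO12G00370, 1 of 4 so named, with 1 higher and 2 lower), which energizes uptake at the cell surface, had 1842, 1493 and 1400.0 CPM at 12 h, against 8568, 8799 and 8464 CPM at 0 h, without overlap (log2 fold change -2.45 ± 0.11, edgeR adjusted p = 3.6e-09).

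Genes of phosphate uptake and recycling were called in both directions. In phosphate transport and SPX proteins 5 of 14 tested genes were higher and 3 lower (median 0.34). Of these, 3 were at least 2-fold higher and 2 at least 2-fold lower. The lowest log2 fold change of any tested member, called or not, was -6.99. The probable phosphate transporter 1-12 (NO16G01940), which carries phosphate into the cell in plants, had 680.2, 772 and 742 CPM at 12 h, against 1582, 1474 and 1452 CPM at 0 h, below 0 h in every library (log2 fold change -1.04 ± 0.08, edgeR adjusted p = 1.4e-07). Its means were 1503, 509, 731, 1476 and 1687 CPM at 0, 6, 12, 24 and 48 h. An SPX domain membrane protein (NO04G02810, 1 of 2 so named, with 1 higher and 0 lower), SPX being a domain that senses phosphate through inositol pyrophosphates in plants and yeast, had 162, 208 and 211 CPM at 12 h, against 37.2, 36.5 and 34.2 CPM at 0 h, above 0 h in every library (log2 fold change 2.43 ± 0.24, edgeR adjusted p = 2.0e-06). PHO1 homolog 7 (NO05G03150), of a family of phosphate exporters, was higher (log2 fold change 1.82 ± 0.10), and PHO1 (NO17G01230) lower (log2 fold change -0.55 ± 0.12). Among phosphatases and phosphorus recycling 7 of 16 tested genes were higher and 5 lower (median 0.20). An alkaline phosphatase-like protein (NO16G02990) averaged 20.5 ± 3.04 CPM at 12 h, against 5.62 ± 0.371 CPM at 0 h (log2 fold change 1.87 ± 0.28). A nucleotidase specific to IMP and GMP (NO13G02070) averaged 38.6 ± 4.74 CPM at 12 h, against 143 ± 4.23 CPM at 0 h (log2 fold change -1.89 ± 0.11).

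In phosphorus-free membrane lipids 2 of 5 tested genes were higher and 1 lower (median -0.08). Of the 4 genes named sulfoquinovosyl transferase SQD2, after the enzyme that makes a sulfur lipid without phosphorus, 2 were higher and 2 were not called. NO15G02830 had 86.8, 72.1 and 92.1 CPM at 12 h, against 6.24, 6.28 and 4.96 CPM at 0 h (log2 fold change 3.84 ± 0.41, edgeR adjusted p = 4.0e-06). NO01G02630 averaged 219 ± 31.9 CPM at 12 h, against 25.97 ± 2.46 CPM at 0 h (log2 fold change 3.08 ± 0.25). Neither gene's groups overlapped. NO05G03760 averaged 64.1 ± 1.03 CPM at 12 h, against 85.5 ± 23.2 CPM at 0 h (log2 fold change -0.41 ± 0.37, edgeR adjusted p = 0.35). NO07G01720 averaged 209.8 ± 16.8 CPM at 12 h, against 221 ± 4.34 CPM at 0 h (log2 fold change -0.08 ± 0.08, edgeR adjusted p = 0.43). Digalactosyldiacylglycerol synthase 1 (NO07G02110), of a galactolipid, was lower, with 207 ± 34.5 CPM at 12 h, against 371 ± 14.9 CPM at 0 h (log2 fold change -0.84 ± 0.16). Phospholipase D zeta 2 (NO06G04260), which cuts phospholipids, had 150.1, 157 and 155 CPM at 12 h, against 10.7, 12.1 and 11.47 CPM at 0 h, far above 0 h in each library (log2 fold change 3.75 ± 0.23, edgeR adjusted p = 3.2e-08). The list of phospholipid breakdown had 7 higher and 6 lower of 21 (median -0.04).

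In triacylglycerol synthesis 2 of 26 tested genes were higher and 11 lower (median -0.38), with 4 higher by DESeq2. Both members called higher by edgeR were lipid droplet surface proteins, which coat the oil bodies of this genus. NO11G02550 had 1626, 1535 and 1624 CPM at 12 h, against 209, 211 and 207 CPM at 0 h (log2 fold change 2.93 ± 0.09, edgeR adjusted p = 6.3e-10). NO05G01760 averaged 268 ± 3.30 CPM at 12 h, against 190.1 ± 5.44 CPM at 0 h (log2 fold change 0.50 ± 0.04). Diacylglycerol acyltransferase 2 (NO19G01680, 1 of 4 so named, with 0 higher and 2 lower), which makes triacylglycerol, was lower, with 92.1 ± 2.77 CPM at 12 h, against 232 ± 1.69 CPM at 0 h (log2 fold change -1.33 ± 0.13). In fatty acid synthesis 5 of 23 tested genes were higher and 12 lower (median -0.31), and acetyl-CoA carboxylase 2 (NO09G00220), the first step, averaged 1309 ± 90.7 CPM at 12 h, against 5313 ± 211 CPM at 0 h (log2 fold change -2.02 ± 0.08). Long chain acyl-CoA synthetase 7 (NO25G00730, 1 of 4 so named, with 1 higher and 2 lower), a peroxisomal enzyme that activates fatty acids for oxidation in plants, had 7.32, 4.72 and 2.81 CPM at 12 h, against 461, 231 and 336 CPM at 0 h (log2 fold change -6.10 ± 0.63, edgeR adjusted p = 3.0e-06). In fatty acid beta-oxidation 6 of 27 tested genes were higher and 9 lower (median -0.23). In sterol and isoprenoid synthesis 6 of 28 tested genes were higher and 12 lower (median -0.31). Against that balance, a sterol reductase (NO07G01540) averaged 122 ± 31.5 CPM at 12 h, against 6.08 ± 4.21 CPM at 0 h (log2 fold change 4.33 ± 0.91).

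In nitrogen uptake and assimilation 1 of 25 tested genes were higher and 10 lower (median -0.28), and the count of higher genes was 0 without 0 h replicate b or c or 12 h replicate b or c, and 2 without 6 h replicate a. The NRT1/PTR gene (NO19G01670) described among the largest rises lies outside this list, whose highest log2 fold change was 1.03. Ferredoxin-dependent glutamate synthase (NO10G02290) averaged 220.2 ± 27.03 CPM at 12 h, against 647 ± 15.3 CPM at 0 h (log2 fold change -1.56 ± 0.09). In sulfate uptake and assimilation 7 of 22 tested genes were higher and 7 lower (median 0.24). A probable sulfate transporter (NO17G02590) had 554, 561 and 567 CPM at 12 h, against 60.3, 52.9 and 51.4 CPM at 0 h, without overlap (log2 fold change 3.35 ± 0.17, edgeR adjusted p = 8.6e-09), whereas ATP sulfurylase 2 (NO14G02380, 1 of 2 so named, with 1 higher and 1 lower), which activates sulfate, was lower, with 99.002 ± 8.67 CPM at 12 h, against 359.7 ± 7.51 CPM at 0 h (log2 fold change -1.86 ± 0.09). Among antioxidant enzymes 21 of 92 tested genes were higher and 43 lower (median -0.31). Superoxide dismutase (NO09G00950) averaged 37.8 ± 1.64 CPM at 12 h, against 166 ± 4.74 CPM at 0 h (log2 fold change -2.13 ± 0.19). Glutaredoxin-C6 (NO24G01610) averaged 155 ± 11.7 CPM at 12 h, against 24.1 ± 1.63 CPM at 0 h (log2 fold change 2.68 ± 0.09).

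Of the DNA-binding transcription factors, 26 of 67 tested genes were higher and 16 lower. Of the 12 tested genes named MYB3R, 8 were higher and 1 lower. In plants this family controls genes of the G2 and M phases. MYB3R-3 (NO10G02690) had 224, 220.1 and 225 CPM at 12 h, against 17.3, 18.1 and 18.03 CPM at 0 h (log2 fold change 3.65 ± 0.17, edgeR adjusted p = 6.2e-09). MYB3R-5 (NO27G01050, 1 of 3 so named, with 2 higher and 0 lower) averaged 159.5 ± 25.5 CPM at 12 h, against 8.63 ± 4.05 CPM at 0 h (log2 fold change 4.20 ± 0.50). In both, every library of 12 h lay above every library of 0 h. Heat stress factor B-2a (NO14G01060, 1 of 2 so named, with 1 higher and 1 lower) was higher, with 193 ± 11.8 CPM at 12 h, against 7.60 ± 0.114 CPM at 0 h (log2 fold change 4.67 ± 0.21), and another heat shock factor, HSF24 (NO22G01460), lower, with 331 ± 116 CPM at 12 h, against 1393 ± 72.3 CPM at 0 h (log2 fold change -2.08 ± 0.21). A bZIP factor (NO02G00670, 1 of 2 so named, with 0 higher and 1 lower) fell to 7.16 ± 1.19 CPM at 12 h, against 111 ± 4.08 CPM at 0 h (log2 fold change -3.95 ± 0.14). Of the light receptors and clock-type factors 2 of 13 tested genes were higher and 8 lower (median -0.69). CCA1 (NO01G04790), a morning factor of the plant clock, had 203, 132 and 177 CPM at 12 h, against 1189.5, 1118 and 314 CPM at 0 h (log2 fold change -2.35 ± 0.40, edgeR adjusted p = 2.1e-04). REVEILLE 4 (NO02G04780), of the same family, averaged 64.5 ± 7.90 CPM at 12 h, against 10.02 ± 7.10 CPM at 0 h (log2 fold change 2.68 ± 0.52). In cyclic nucleotide and calcium signalling 10 of 39 tested genes were higher and 17 lower (median -0.32). Calmodulin (NO27G00950), a calcium sensor among the higher members, averaged 583 ± 28.2 CPM at 12 h, against 142 ± 3.45 CPM at 0 h (log2 fold change 2.04 ± 0.08).

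The other lists held calls in both directions. In fatty acid desaturation and elongation 8 of 26 tested genes were higher and 8 lower (median -0.23). In sphingolipid metabolism 4 of 13 tested genes were higher and 4 lower (median -0.34). In amino acid synthesis 20 of 75 tested genes were higher and 34 lower (median -0.24). In nucleotide synthesis and salvage 20 of 63 tested genes were higher and 26 lower (median -0.05). Among ABC transporters 28 of 83 tested genes were higher and 33 lower (median -0.22). Among proteases of organelles 7 of 42 tested genes were higher and 19 lower (median -0.24). Among protein kinases 39 of 147 tested genes were higher and 52 lower (median -0.22). Among protein phosphatases 21 of 67 tested genes were higher and 26 lower (median -0.07). In plastid protein import and assembly 1 of 9 tested genes were higher and 6 lower (median -0.56), and the member called higher lost its call without any 1 of the 0 h libraries or 12 h replicate c.

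Of the 3068 tested genes without a description, 1008 were higher and 857 lower (median 0.06), against 1982 and 2190 of the 6253 with one (median -0.08). NO07G04410 had 34.0, 47.5 and 40.4 CPM at 12 h, against 0.175, 0.449 and 0.336 CPM at 0 h (log2 fold change 6.95 ± 0.83, edgeR adjusted p = 1.2e-05), and NO09G00550 fell to 0.531 ± 0.0272 CPM at 12 h, against 61.0 ± 4.34 CPM at 0 h (log2 fold change -6.83 ± 0.54). Of the 88 tested genes that the table lists as newly assembled, 38 were higher and 9 lower (median 1.71). 6 genes had at most 3 counts in each library of 0 h and at least 50 in each of 12 h, and 1 gene had the opposite pattern.

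The functional classes in the deposited table, which were not chosen for this comparison, describe the change on a coarser scale. The class of the cytoskeleton had 50 of 90 higher and 16 lower, that of intracellular trafficking and secretion 131 of 291 higher and 63 lower, and that of the cell cycle 74 of 170 higher and 42 lower. Coenzyme metabolism had 17 of 92 higher and 47 lower, secondary metabolites 36 of 140 higher and 72 lower and RNA processing 48 of 277 higher and 115 lower. The class of protein turnover and chaperones was close to all genes, with 217 of 642 higher and 216 lower. So were replication, recombination and repair, with 68 of 201 higher and 61 lower (median 0.01), and chromatin structure, with 30 of 94 higher and 29 lower (median -0.02). These 2 classes thus did not show the lean of the lists of DNA replication and histones. Not all classes are given here.

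The level at 12 h was also set against the other times. These comparisons share the 12 h libraries with the one above, so they are given side by side and not as independent results. At 12 h 23.5% of the tested genes were higher and 23.3% lower than at 6 h. At 24 h 27.2% were higher and 26.6% lower than at 12 h, and at 48 h 26.6% were higher and 26.2% lower than at 12 h. Vesicle coat genes had 21 higher and 2 lower members in 12 h against 6 h, and 3 higher and 24 lower in 24 h against 12 h. Chlorophyll and haem synthesis had 2 higher and 12 lower members in 12 h against 6 h, and 20 higher and 2 lower in 24 h against 12 h. DNA replication had 6 higher and 21 lower members in 12 h against 6 h, and 6 higher and 26 lower in 24 h against 12 h. Cytosolic ribosomal proteins had 15 higher and 0 lower members in 12 h against 6 h, and 3 higher and 28 lower in 24 h against 12 h, and at 48 h 0 were higher and 69 lower than at 12 h (median -1.29). The proteasome had 13 higher and 8 lower members in 12 h against 6 h, and 1 higher and 35 lower in 24 h against 12 h.

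**Figure D4:**
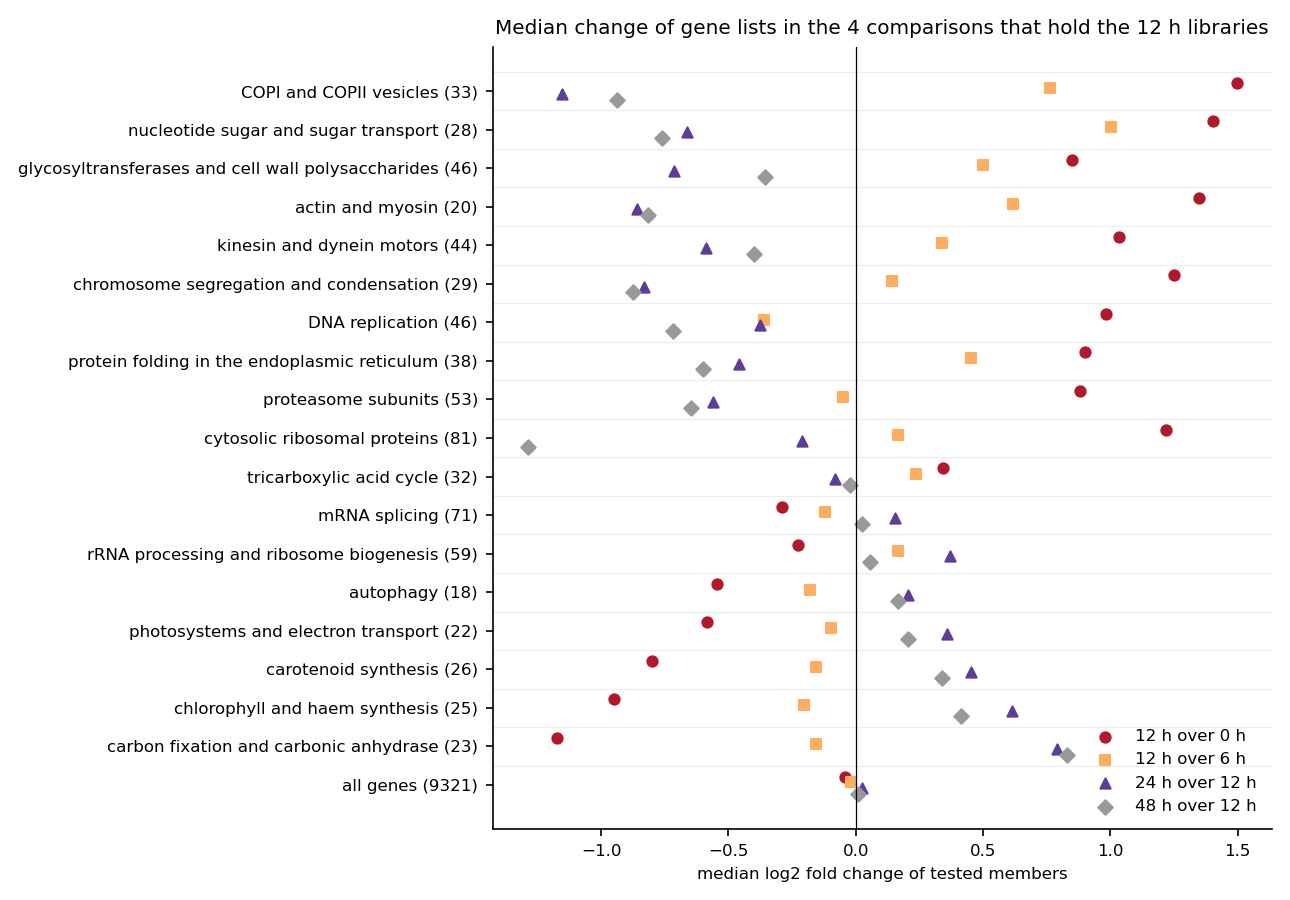
Median log2 fold change (horizontal axis) of the tested members of 18 gene lists and of all genes in the 4 comparisons that hold the 12 h libraries. COPI and COPII vesicles lie at 1.496 for 12 h over 0 h and at -1.15 for 24 h over 12 h, and carbon fixation at -1.17 and 0.79.

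**Figure D5:**
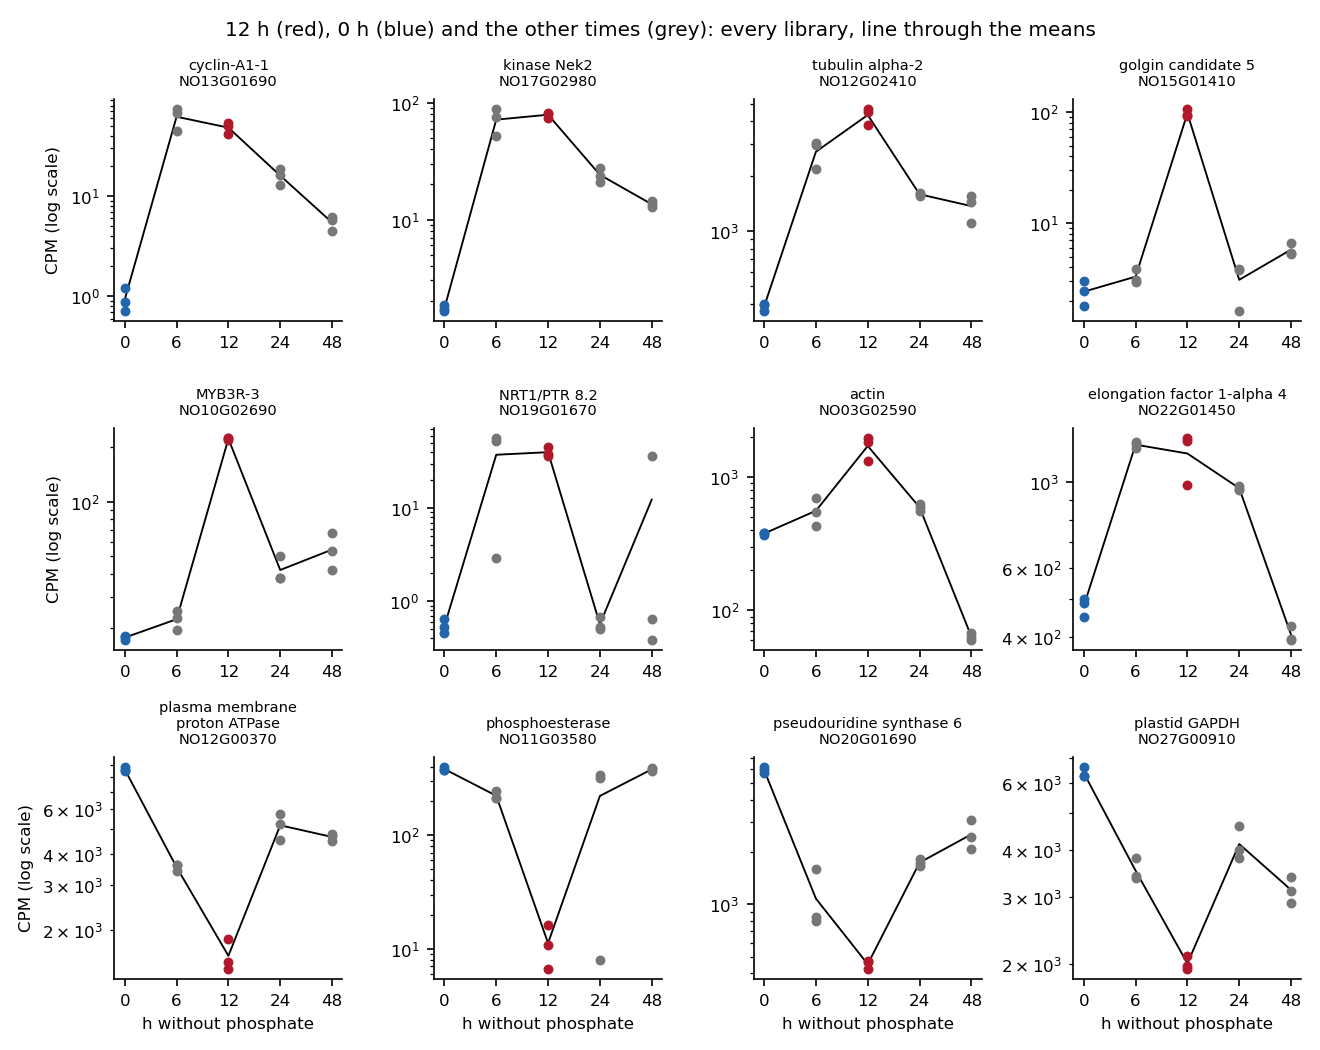
Level in CPM (log axis) of 12 named genes in every library at 0, 6, 12, 24 and 48 h (horizontal axis), with 12 h in red, 0 h in blue, the other times in grey and a line through the means, n = 3. Golgin candidate 5 stands at 97.8 CPM at 12 h and at 5.78 CPM or less at the other times, and cyclin-A1-1 is high at both 6 h (61.9 CPM) and 12 h (48.2 CPM).

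How reads were assigned to genes is stated in none of the sources used. Where near-identical copies or overlapping genes share reads, as may the paired tubulins, histones and ribosomal proteins, the split of counts between them is uncertain.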

How the data were processed

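RNA-seq of 15 libraries, 3 at each of 5 times, was used. Per the file headers, the deposited table gives each gene a count and an FPKM value in every library. The authors' counts are whole numbers and were treated as estimated counts, with no scaling to depth. HISAT2 is named in the submitters' processing notes. Its version, the counting tool, the build and the annotation are not given in the sources used. The deposited FPKM values are scaled by the authors to gene length and library size. In 315 low values 94.29% corresponded to reads within 1 below the listed count and 15.56% were whole within 0.05 reads. The listed counts thus look like estimates rounded up to whole numbers, so values at a few counts per library are less certain than they appear. All tests used the deposited counts.

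Genes were kept by edgeR's filterByExpr, scaled by TMM and fitted by edgeR's quasi-likelihood method (edgeR 4.0.16, R 4.3.3, limma 3.58.1) with a mean for each time, so that all 15 libraries share the estimate of spread. The SE is derived from the fold change and its F statistic. The pipeline was tested on simulated data in which far fewer genes changed than were called here. That run does not check the scaling or the error rate under so wide a change. The counts behind the 12 h and 0 h values total 16649421 to 24955189 per library. A count limit of 3 per library equals 0.140 to 0.187 CPM at 12 h and 0.126 to 0.175 CPM at 0 h. Chi-square per degree of freedom between libraries of the same time was 90.07 to 119.6, so no library repeats another within sampling noise. Over 30 pairs of libraries with the same letter at different times, correlations of their deviations from the group means were -0.088 to 0.077 and 0 exceeded 0.1, so the letters were not used to pair libraries.

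Named genes were called, with a description, a mean log2 CPM of at least 3 and no overlap between 12 h and 0 h: the largest rises and falls, the 3 largest rises and falls of each list, the most abundant, and genes without a description. Genes outside this rule, NO03G02610, NO05G03760, NO07G01720 and NO17G00650, share a name with a named gene and were added after values were seen. Lists were matched by words in the descriptions. The members and lists were chosen with earlier results of these data known, and entries that matched by spelling only were removed after values were seen. Alternatives were DESeq2 1.42.0, other scalings, other filters, the letter as a block, the 6 libraries alone and each library left out. A fit without erratic genes was added after seeing the data. Figures were drawn with matplotlib 3.10.9 in Python 3.11.15.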

Additional observations from a re-analysis of the deposited data

How the results depend on the processing

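The counts of 2990 genes called higher at 12 h and 3047 called lower stayed within 1.5 times under every alternative run. With the replicate letter as a block, the fit gave 2947 higher and 3008 lower. Leaving out each library in turn gave 2798 to 3007 higher and 2853 to 3137 lower. Upper-quartile scaling gave 2819 higher and 3261 lower and a median of all genes of -0.10, against -0.02 under the size factors of DESeq2. The test of DESeq2 gave 3116 higher and 3068 lower. Of 8751 values of the 381 named genes under these alternatives, 8650 kept their call, 101 of 27 genes lost it and 0 reversed. DESeq2 gave no adjusted p for 8 named genes. Of 2944 counts of list members, 45 moved by more than 1.5 times. These were small counts: the proteasome subunits lower were 2 instead of 4 without 0 h replicate b, and triacylglycerol genes higher were 4 instead of 2 by DESeq2. Depth limits genes near 3 counts per library.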
